A study of Mus musculus with 12 samples.

Results

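Metallothionein and zinc transporter mRNA was examined in mouse liver through 9 named genes: the metallothioneins Mt1 and Mt2, the zinc-sensing transcription factor Mtf1, the exporters Slc30a1 and Slc30a10, and the importers Slc39a4, Slc39a5, Slc39a8 and Slc39a14. The genes were listed by symbol and found through the RefSeq accession of each probe. They had 11 probes among 39429 on the array, of which 9 were well above background on every array. With a single probe to represent each gene, 8 of the 9 were among 16916 genes tested, and Slc39a5 was not.

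The study asked how liver gene expression differed when hepatocytes could not make serine by the phosphorylated pathway. Liver RNA came from 6 LKO mice and 6 Floxed littermates, all male, 30 weeks old and on a C57BL/6 background, 1 mouse per single-color array. LKO mice carried Alb +/Cre and Phgdh flox/flox, so the albumin promoter drove Cre in hepatocytes and removed a pair of exons of Phgdh there, while other liver cells kept the gene. Floxed mice carried Phgdh flox/flox without Cre, and no group had Cre without the floxed allele or the wild-type Phgdh allele.

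Metallothioneins are small cysteine-rich proteins that hold zinc and copper in the cytosol, and liver is one of the organs in which they are most strongly induced. Mtf1 binds DNA when cellular zinc rises, at a short sequence named the metal response element, and turns on Mt1, Mt2 and Slc30a1. Slc30 proteins (ZnT) carry zinc or manganese out of the cytosol, Slc39 proteins (ZIP) carry these metals into it, and hepatic metallothionein and Slc39a14 are also known to rise with glucocorticoids or interleukin-6.

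The starts of the genes that Mtf1 is known to control, and of Slc30a10, are shown because they hold matches to the core of the metal response element. Sequences are from RefSeq (GRCm38.p6), which gave a window for 7 of the 9 genes. Slc39a4 and Slc39a14 are named only. Each window holds 250 bases before the transcript start and 30 bases from it on, 5′ to 3′ on the strand of the gene. Capitals mark TGCACNC or TGCGCNC on either strand, and a match on the other strand appears as its reverse complement. The windows below are Mt1 at chr8:94178839-94179118, Mt2 at chr8:94172368-94172647, Slc30a1 at chr1:191906531-191906810 and Slc30a10 at chr1:185454598-185454877, each on the + strand.
Mt1: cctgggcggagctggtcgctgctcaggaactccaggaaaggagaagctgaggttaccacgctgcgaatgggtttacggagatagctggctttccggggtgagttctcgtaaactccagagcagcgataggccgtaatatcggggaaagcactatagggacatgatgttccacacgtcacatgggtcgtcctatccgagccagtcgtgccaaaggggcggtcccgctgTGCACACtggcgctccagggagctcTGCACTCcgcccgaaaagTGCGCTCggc
Mt2: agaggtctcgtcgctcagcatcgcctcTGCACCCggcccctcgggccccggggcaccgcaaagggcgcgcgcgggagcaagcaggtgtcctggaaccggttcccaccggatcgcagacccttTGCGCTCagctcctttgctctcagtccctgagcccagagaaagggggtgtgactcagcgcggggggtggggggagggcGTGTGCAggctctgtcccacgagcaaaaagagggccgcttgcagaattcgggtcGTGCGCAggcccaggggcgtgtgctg
Slc30a1: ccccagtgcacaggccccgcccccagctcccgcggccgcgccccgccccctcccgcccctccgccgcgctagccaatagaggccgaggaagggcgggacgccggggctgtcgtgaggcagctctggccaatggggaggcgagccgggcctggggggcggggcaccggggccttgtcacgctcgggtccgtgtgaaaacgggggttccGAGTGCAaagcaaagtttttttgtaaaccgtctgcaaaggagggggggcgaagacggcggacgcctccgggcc
Slc30a10: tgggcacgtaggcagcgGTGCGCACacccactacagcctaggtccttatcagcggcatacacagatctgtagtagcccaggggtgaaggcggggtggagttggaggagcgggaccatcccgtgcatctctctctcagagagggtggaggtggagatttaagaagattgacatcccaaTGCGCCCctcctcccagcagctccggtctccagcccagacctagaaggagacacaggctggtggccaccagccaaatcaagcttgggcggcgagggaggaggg

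Mt1 held 3 matches, all on its own strand, with the start base counted as 1 and the base before it as -1. They began at -23, 3 and 21, so they lay around the start as annotated in RefSeq. Where transcription starts in these livers was not measured. Mt2 held 4, which began at -223 and -128 on its own strand and at -50 and 5 on the other strand. In Slc30a1 the single match began at -43 on the other strand. Of the 3 matches in Slc30a10, the pair at -233 and -232 overlapped on opposite strands and the other began at -73. No match was found in the window of Mtf1, and Slc39a5 and Slc39a8, with 2 windows each, had 1 match in 1 of them.

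Matches of this kind were common. Of 32851 windows of this length in the RefSeq table, 24.1% held at least 1 match, 6.37% at least 2 and 1.73% at least 3, and 0.405% held at least as many as Mt2. A match is a string of letters and not a shown binding site, and bases outside the windows were not searched.

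**Figure D1:**
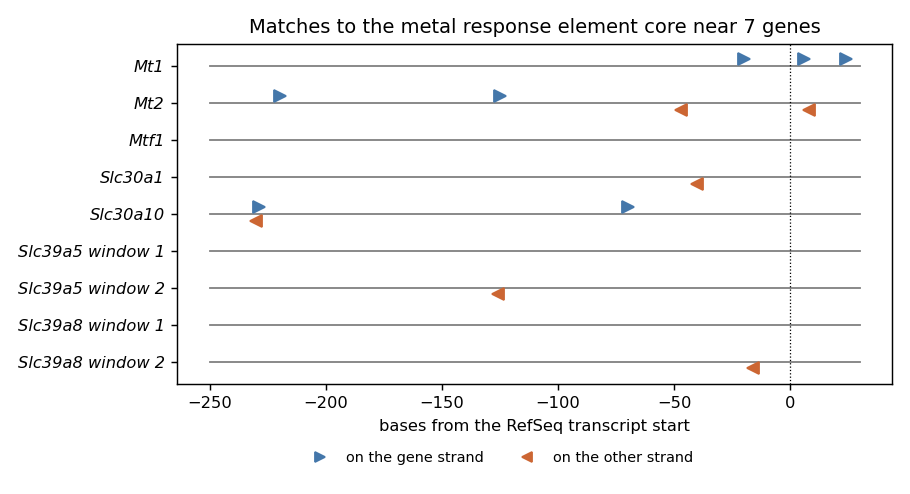
Position of each match to the metal response element core along the RefSeq windows of 7 genes, in bases from the transcript start (dotted line). Right-pointing triangles lie on the strand of the gene and left-pointing triangles on the other strand. Mt2 has 4 matches, Mt1 and Slc30a10 have 3 each, and Mtf1 has none.

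No spot was saturated, and the number of probes marked well above background lay between 21614 and 23913 on Floxed arrays and between 22399 and 24252 on LKO arrays. The 75th percentile of intensity ran from 258 to 473 in Floxed and from 239 to 427 in LKO arrays. Arrays sat 4 to a slide: Floxed 1 to 4 on slide 1, Floxed 5 and 6 with LKO 1 and 2 on slide 2, and LKO 3 to 6 on slide 3, so slide 2 alone held both genotypes. Phgdh was lower in LKO by limma (-0.48 on the log2 scale, SE 0.18, unadjusted p = 0.0179, Benjamini-Hochberg adjusted p = 0.451), but on slide 2 the difference was -0.05. With 75th percentile scaling it was -0.34 and no longer called, and with normexp background correction it was -0.19 and still called. The Phgdh probe was dim, with a mean log2 intensity of 5.18 in Floxed and 4.70 in LKO mice, brighter than only 8.3% of genes tested. Where this probe lies relative to the deleted exons was not determined. A second Phgdh probe gave 0.30 (SE 0.23) in a fit across all probes. That probe cleared the background in just 1 Floxed and 3 LKO mice, so it gives no direction. By qRT-PCR and Western blotting, the paper found less Phgdh mRNA and protein in LKO liver. Of the hepatocyte markers, 5 were tested, and their mean log2 intensity ran from 17.65 to 17.75 in Floxed and from 17.59 to 17.74 in LKO mice, with none called. These markers sit at the bright end of the scale, and Serpina1a had one and the same value on all 12 arrays after quantile normalization, so it could not differ. Of all genes tested, 8.35% were called at an unadjusted limma p below 0.05 (832 higher and 581 lower in LKO) and 0 after adjustment. The higher share of the calls was 58.9%, and 78.1% where arrays were scaled to their 75th percentile. Whole liver was measured, so fewer cells of a type and less RNA per cell cannot be told apart.

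Between the genotypes, 0 of the 8 tested genes were called, against 8.35% of all genes tested. In LKO mice 2 of them, Slc30a10 and Slc39a8, had a higher mean and 6 a lower mean, with 0 called in either direction, where 4.92% of all genes were called higher and 3.43% lower. Of all genes tested, 48.8% had a higher mean in LKO. The median difference over the 8 was -0.14 on the log2 scale (LKO minus Floxed), against -0.0035 over all genes tested. The values of LKO and Floxed mice overlapped for every one of the 8, and they were apart for 0.296% of all genes.

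**Figure D2:**
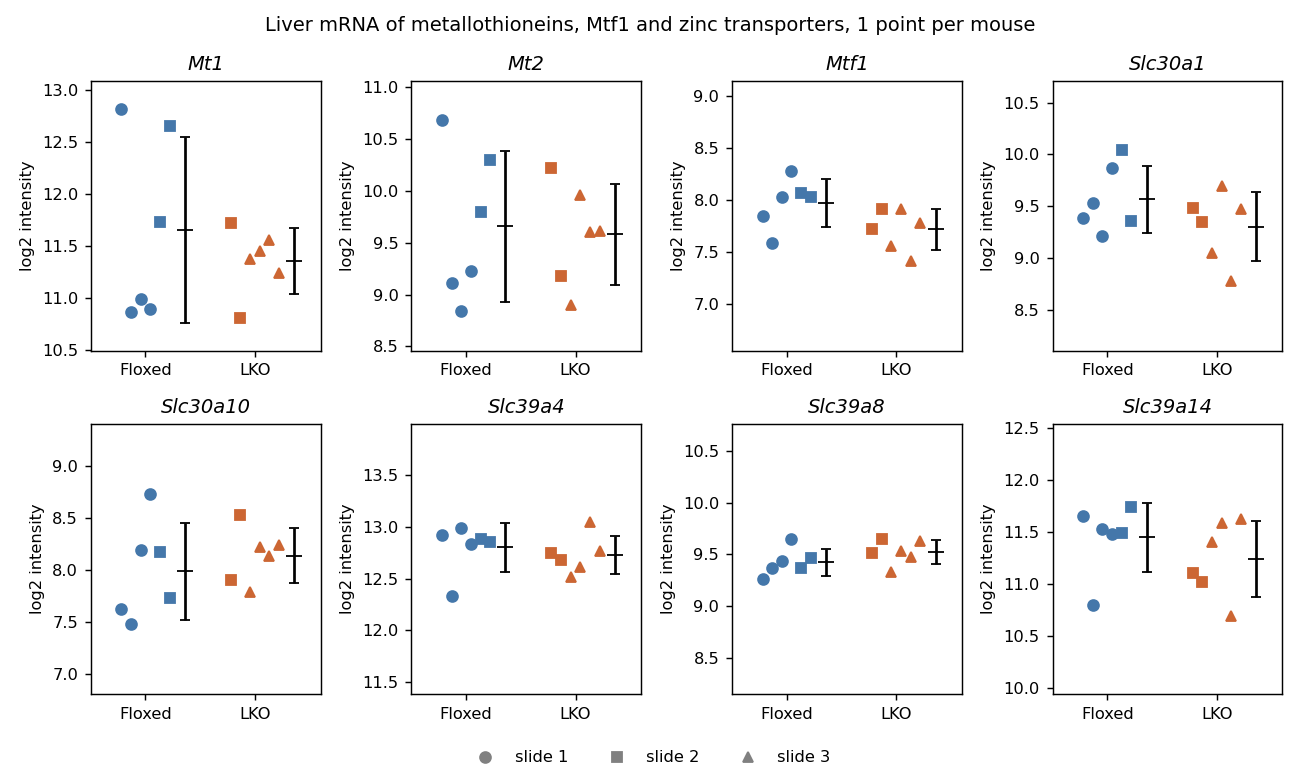
Log2 intensity after quantile normalization of the 8 tested genes in each mouse, with circles, squares and triangles for slides 1, 2 and 3. Each panel spans the same number of log2 units, and bars give the mean and SD of 6 mice. Floxed and LKO values overlap in every panel, and Mt1 and Mt2 spread most.

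Mt1, a main metallothionein of liver that buffers zinc and cadmium, varied more between Floxed mice than between LKO mice. Its log2 intensity in Floxed mice had a lowest value of 10.86, a median of 11.36 and a highest value of 12.82 (mean 11.66 ± 0.90, SD, n = 6). In LKO mice it had a lowest value of 10.80, a median of 11.41 and a highest value of 11.72 (mean 11.36 ± 0.32, SD, n = 6). Floxed 1 and Floxed 6 stood well above all LKO mice, Floxed 5 (11.73) stood just above the highest of them, and Floxed 2, 3 and 4 stood near the lowest LKO mouse, so the LKO values lay inside the Floxed range apart from that mouse. Highest over lowest was 3.87-fold among Floxed and 1.89-fold among LKO mice. The difference in spread was not tested.

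The means of Mt1 differed by -0.30 (SE 0.35), a fold of 0.811 with a 95% interval from 0.484 to 1.36. The limma test gave an unadjusted p of 0.398 and a Benjamini-Hochberg adjusted p of 0.946, and a two-sided exact permutation test over 924 arrangements gave p = 0.446. On slide 2 the difference was -0.93, over 1.5 times the pooled one, from 4 arrays. In Floxed mice the mean on slide 1 was 11.39 and on slide 2 it was 12.19, while LKO means on slides 2 and 3 were 11.26 and 11.40. The difference between Floxed means of the 2 slides was thus wider than the pooled difference between the genotypes but not than that on slide 2, and each slide rests on 2 to 4 mice. Leaving out 1 mouse at a time gave differences from -0.46 to -0.07, the smallest without Floxed 1 and -0.10 without Floxed 6.

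Mt2, the other metallothionein made in liver, followed the same mice. Its log2 intensity ran from 8.84 through a median of 9.51 to 10.68 in Floxed (mean 9.66 ± 0.72, SD, n = 6) and from 8.90 through 9.61 to 10.22 in LKO mice (mean 9.58 ± 0.49, SD, n = 6). The LKO range lay within the Floxed range. The difference was -0.08 (SE 0.32), a fold of 0.949 with a 95% interval from 0.590 to 1.53. Limma gave p = 0.814 and a Benjamini-Hochberg adjusted p of 0.984, and the exact permutation test p = 0.831. The sign of the difference turned without Floxed 1 (0.13), Floxed 6 (0.05), LKO 2 (0.00) or LKO 3 (0.06). On slide 2 it was -0.34. The interval holds both a rise and a fall of 1.5-fold, so a change of that size in either direction lies inside it.

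Of the other metallothioneins, Mt3, best known from brain, was tested at a difference of 0.31 (SE 0.23, Benjamini-Hochberg adjusted limma p = 0.844, exact permutation p = 0.268), which was -0.16 on slide 2. Mt4, known from stratified epithelium, was well above background on 11 of 12 arrays and was not tested.

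The residual SD between mice of one genotype was 0.67 for Mt1 and 0.62 for Mt2, against a median of 0.22 over all genes tested. This placed Mt1 above 97.7% and Mt2 above 96.9% of them. Slc39a8 was at the other end, with a residual SD above 13.9% of all genes, while Mtf1 and Slc39a4 lay near the middle at 48.8% and 46.4%. The exporters and Slc39a14 fell between, at 76.9% for Slc30a1, 80.4% for Slc39a14 and 84.4% for Slc30a10.

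**Figure D3:**
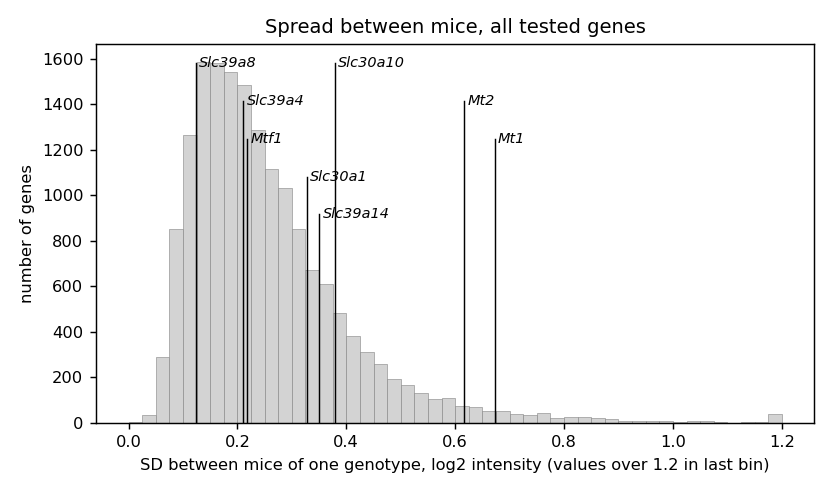
Histogram over 16916 tested genes of the SD between mice of one genotype on the log2 scale, with the 8 tested genes marked by vertical lines whose heights carry no meaning. Mt1 and Mt2 stand in the upper tail at 0.67 and 0.62, and Slc39a8 stands in the lower part.

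Mt1 and Mt2 varied together from mouse to mouse. Over 12 mice Pearson's r was 0.863 (permutation p = 0.00021, Benjamini-Hochberg adjusted p = 0.0021 over 10 relations) and Spearman's rho was 0.804 (permutation p = 0.00249, adjusted p = 0.0249). With values centred on slide means r was 0.855, and with values centred on genotype means it was 0.874. Without the mice farthest from the median of Mt2, Floxed 1 and Floxed 3, r was 0.785 (n = 10, permutation p = 0.00463, adjusted p = 0.0463). Floxed 1 and Floxed 6, the mice farthest from the median of Mt1, stood apart at the top; without them r was 0.739 with a permutation p of 0.0185 but an adjusted p of 0.185, so the adjusted call on r was lost without this pair. The adjusted call on rho was lost without Floxed 1 and Floxed 6 (rho 0.661, adjusted p = 0.442), without Floxed 1 and Floxed 3 (rho 0.770, adjusted p = 0.131) and with arrays scaled to their 75th percentile (rho 0.762, adjusted p = 0.0547), while r was 0.851 under that scaling (adjusted p = 0.0034).

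**Figure D4:**
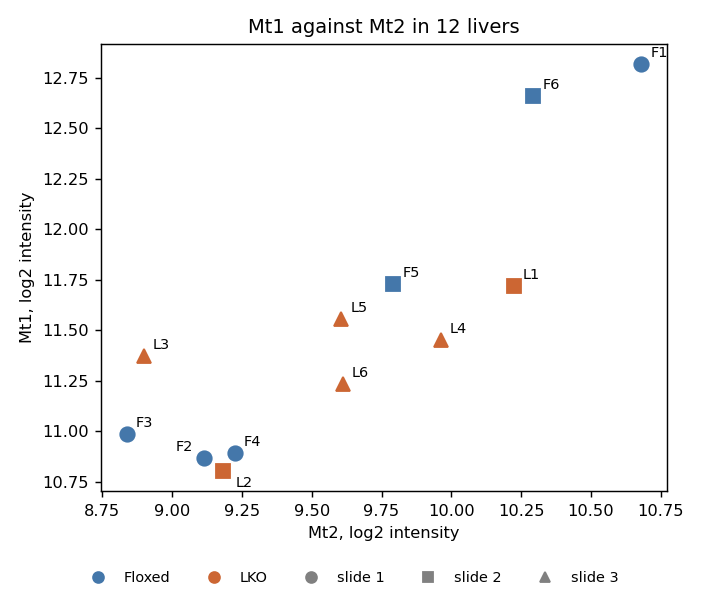
Mt1 against Mt2 in each liver, both as log2 intensity, with F for Floxed and L for LKO followed by the mouse number. Floxed 1 and Floxed 6 lie highest on Mt1, and Floxed 2 to 4 and LKO 2 lie lowest.

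Floxed 1 and Floxed 6 were on slides 1 and 2, and their arrays had 75th percentiles of intensity of 283 and 427, near the lower and the upper end of the Floxed arrays. These mice differed in slide and in brightness, and whether the array played a part in their values was not tested. The difference between the Mt1 and the Mt2 log2 intensity on one array ranged from 1.49 to 2.47, with an SD of 0.33 over the 12 arrays, against an SD of 0.66 for Mt1 alone and 0.59 for Mt2 alone.

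The other 9 relations, each of Mt2 with 1 gene, did not pass adjustment. Saa1, an acute phase gene, had r = 0.614 with a permutation p of 0.0263 and an adjusted p of 0.132, rho = 0.445 (adjusted p = 0.380), and r = 0.104 without Floxed 1 and Floxed 3. Without Floxed 1 and Floxed 6 the r of Saa1 was 0.059. Floxed 1 was left out both times, so the relation of Saa1 to Mt2 rested on few mice. Lcn2, also of the acute phase, had r = 0.373 (adjusted p = 0.433). Among glucocorticoid-induced genes r was 0.404 for Fkbp5, -0.391 for Tsc22d3 and 0.086 for Per1, and none passed. With Mtf1 r was 0.068, with Slc30a1 0.179, with Slc30a10 -0.330 and with Slc39a14 0.324, again with no adjusted p under 0.05.

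Among 12508 other tested genes with a symbol, 5 were most like the mean deviation of Mt1 and Mt2 from their genotype means over the 12 arrays. They were Pcyt1a, of phosphatidylcholine synthesis (r = 0.937), Tnfrsf4, a costimulatory receptor of T cells (r = 0.914), Decr2, a peroxisomal enzyme of unsaturated fatty acid oxidation (r = 0.873), Sap130, of the Sin3 corepressor complex (r = 0.872), and Nr2c1, an orphan nuclear receptor (r = 0.866). Centred on slides as well, the r of these genes ran from 0.854 to 0.940, but the same arrays picked them, so this is no separate check. The log2 intensity of Pcyt1a ran only from 11.64 to 12.08 and that of Tnfrsf4 from 5.71 to 6.25, where Mt1 ran from 10.80 to 12.82. The ranking was made over all of these genes, so it is a description.

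Mtf1, the zinc finger factor that activates the metallothionein genes, came nearest to a call. Its log2 intensity in Floxed mice was 7.59 at the lowest, 8.03 at the median and 8.28 at the highest (mean 7.97 ± 0.23, SD, n = 6), and in LKO mice 7.41, 7.75 and 7.92 (mean 7.72 ± 0.20, SD, n = 6). Floxed 3 to 6 stood above every LKO mouse, and Floxed 1 and 2 lay within the LKO range. The means differed by -0.26 (SE 0.12), a fold of 0.837 with a 95% interval from 0.696 to 1.01.

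By limma the unadjusted p for Mtf1 was 0.0566 and the Benjamini-Hochberg adjusted p 0.615, and by the exact permutation test p was 0.0736. On slide 2 the difference was -0.23. Without Floxed 2, LKO 2 or LKO 4 it passed the unadjusted threshold (-0.33, -0.30 and -0.30), and with slide as a random block it passed as well (-0.26), while normexp background correction gave -0.17. The differences without 1 mouse ran from -0.33 to -0.20. A second Mtf1 probe well above background gave -0.12 (SE 0.12) in a fit across all probes and was not called, and a further one was above background on 0 Floxed and 2 LKO arrays and gives no direction.

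Slc30a1 (ZnT1), the plasma membrane exporter of zinc and a known Mtf1 target, had log2 intensities of 9.21, 9.46 and 10.04 (lowest, median, highest) in Floxed mice and 8.78, 9.41 and 9.69 in LKO mice. Floxed 4 and 5 were above all LKO mice, LKO 3 and 5 were below all Floxed mice, and the other mice overlapped. The difference was -0.26 (SE 0.17), a fold of 0.835 with a 95% interval from 0.643 to 1.08. By limma p was 0.159 and the Benjamini-Hochberg adjusted p 0.818, and the exact permutation p was 0.199. On slide 2 the difference was -0.29, and without 1 mouse it ran from -0.34 (LKO 4) to -0.16 (LKO 5).

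Slc30a10 (ZnT10), which exports manganese from hepatocytes, had log2 intensities of 7.48, 7.95 and 8.73 in Floxed mice and 7.79, 8.18 and 8.53 in LKO mice, so the LKO values lay within the Floxed range. The difference was 0.15 (SE 0.20, 95% interval -0.28 to 0.58), a fold of 1.11. By limma p was 0.462 and the Benjamini-Hochberg adjusted p 0.954, and the exact permutation p was 0.498. It was 0.27 on slide 2, and without 1 mouse it ran from 0.05 (Floxed 2) to 0.30 (Floxed 4).

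Of the importers, Slc39a14 (ZIP14), which brings zinc, manganese and iron into hepatocytes, had log2 intensities of 10.80, 11.51 and 11.74 in Floxed mice and 10.70, 11.26 and 11.62 in LKO mice. LKO 4 and LKO 6 lay among the upper Floxed mice, and Floxed 2, far below the other Floxed mice, lay among the lower LKO mice. The difference was -0.21 (SE 0.19), a fold of 0.865 with a 95% interval from 0.655 to 1.14. By limma p was 0.279 and the Benjamini-Hochberg adjusted p 0.901, and the exact permutation p was 0.329. It was -0.56 on slide 2, where both LKO mice lay below both Floxed mice and limma on those 4 arrays passed the unadjusted threshold. Without Floxed 2 the pooled difference was -0.34, over 1.5 times that with it, and did not pass. Without LKO 5 it was -0.10, and the values without 1 mouse lay between these.

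Slc39a8 (ZIP8), an importer of manganese and zinc, was the steadiest of the 8. Its log2 intensity was 9.26, 9.41 and 9.65 in Floxed and 9.33, 9.52 and 9.65 in LKO mice, with nearly the same ranges. The difference was 0.10 (SE 0.08), a fold of 1.07 with a 95% interval from 0.945 to 1.21. By limma p was 0.260 and the Benjamini-Hochberg adjusted p 0.892, and the exact permutation p was 0.199. On slide 2 the difference was 0.17, and without 1 mouse it ran from 0.06 (Floxed 1) to 0.14 (Floxed 4). The interval reaches no further than a 1.21-fold rise, the narrowest of the 8 genes.

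Slc39a4 (ZIP4), the importer that takes up dietary zinc in the intestine, had log2 intensities of 12.33, 12.87 and 12.99 in Floxed and 12.51, 12.71 and 13.05 in LKO mice. Its single probe was brighter than 87.3% of genes tested, and whether it also reads other RNA was not tested. Floxed 2 was the lowest of all 12 mice, and the other Floxed values lay within the LKO range. The difference was -0.07 (SE 0.12), a fold of 0.951 with a 95% interval from 0.795 to 1.14. By limma p was 0.554 and the Benjamini-Hochberg adjusted p 0.968, and the exact permutation p was 0.569. On slide 2 the difference was -0.15, and without 1 mouse it ran from -0.17 (Floxed 2) to -0.03 (LKO 3). Of 4 markers of intestine only Fabp2, which liver also expresses, was tested, and it was called higher in LKO (0.47, SE 0.19, unadjusted limma p = 0.0253, Benjamini-Hochberg adjusted p = 0.501, exact permutation p = 0.0498). For Vil1, Lct and Muc2, no probe was well above background on all arrays.

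For Slc39a5 (ZIP5), an importer of pancreas and intestine, the probe was not well above background on any of the 12 arrays, with log2 values from 1.18 to 3.54, so neither a level nor a direction was read. Among 9 markers of pancreas acinar cells, 2 were tested and none was called.

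**Figure D5:**
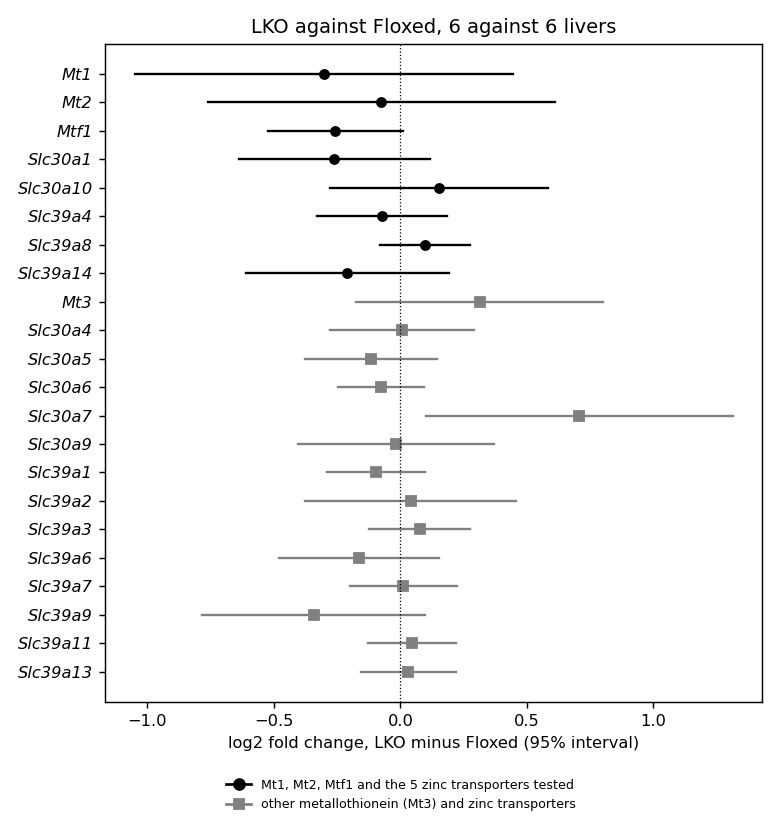
Log2 fold change of LKO over Floxed with its 95% interval from limma, for Mt1, Mt2, Mtf1 and the 5 zinc transporters tested (black) and for Mt3 and the other ZnT and ZIP genes tested (grey). Every black interval spans 0, and of the grey ones Slc30a7 does not.

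The remaining transporters were taken from lists of both families. Of 8 other ZnT genes 5 were tested and 1 was called, where 8.35% of all genes tested were called. The median difference over the 5 was -0.02. The called gene was Slc30a7 (ZnT7), which loads zinc into the Golgi. Its log2 intensity was 6.80, 7.37 and 7.97 in Floxed mice and 7.49, 7.86 and 9.03 in LKO mice, so the groups overlapped. It was higher in LKO by 0.71 (SE 0.28, unadjusted limma p = 0.0259, Benjamini-Hochberg adjusted p = 0.503, exact permutation p = 0.0498). The call was lost without Floxed 4 (0.63), Floxed 6 (0.59), LKO 3 (0.59) or LKO 6 (0.52), on slide 2 alone (0.45) and with the replicate number as a block (0.71), and the mean of its probes gave 0.37. Of 10 other ZIP genes 8 were tested, 0 were called, and their differences ran from -0.34 (Slc39a9) to 0.08 (Slc39a3) with a median of 0.02.

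Genes that share regulators with the metallothioneins were listed too, to be read against the 8.35% called of all genes tested. Of 6 other Mtf1 targets, all were tested and 0 were called, with differences from -0.82 (Tff3) to 0.07 (Csrp1) and a median of 0.01. Hamp, the iron hormone hepcidin, was among them at -0.48 (SE 0.58), with a log2 intensity from 12.25 through a median of 15.64 to 16.24 in LKO mice, and on slide 2 its difference was 0.51. Of 10 copper-handling genes, such as the importer Slc31a1 and the ferroxidase Cp, 8 were tested and 0 were called, with differences from -0.11 to 0.11. All 18 acute phase genes were tested, 0 were called, and their median was -0.01.

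All 11 glucocorticoid-induced genes were tested and 1 was called, where 8.35% of all genes tested were called. Their median difference was -0.13. This was Per1, a repressor of the circadian clock that is also a direct target of the glucocorticoid receptor. Its log2 intensity was 9.77, 10.33 and 10.69 in Floxed mice and 8.04, 9.37 and 9.79 in LKO mice, so the groups overlapped only at the lowest Floxed and the highest LKO mouse. It was lower in LKO by limma (-1.15, SE 0.27, unadjusted p = 0.000945, Benjamini-Hochberg adjusted p = 0.257, two-sided exact permutation p = 0.00433), and on slide 2 the difference was -1.51. Without 1 mouse it ran from -1.28 to -0.93, with p under the unadjusted threshold each time. The named glucocorticoid genes that were used for relations to Mt2, Fkbp5 and Tsc22d3, differed by 0.04 and -0.13.

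Markers of other cells were read beside these values. Of all genes tested, 48.8% had a higher mean in LKO and 8.35% were called. Markers of a cell type can vary together, so their directions are not independent counts. All 6 Kupffer cell markers had a lower mean in LKO with 0 called, and their mean log2 intensity ran from 10.08 to 11.59 in Floxed and from 9.79 to 11.31 in LKO mice. All 5 red blood cell markers also had a lower mean, with 0 called, and ran from 11.02 to 12.48 and from 11.03 to 12.22. Of 5 endothelial markers 1 was called, Pecam1 (higher in LKO by 0.70, Benjamini-Hochberg adjusted limma p = 0.274, exact permutation p = 0.00866), and its difference was 0.04 on slide 2. Of the stellate cell, lymphocyte, cholangiocyte and adipocyte markers tested, 0 were called. A higher mean in LKO was seen for 4 of 6 stellate cell, 1 of 3 lymphocyte and 2 of 2 cholangiocyte markers tested. The 1 adipocyte marker tested had a lower mean. The part of these cell types in the values of the metallothioneins and transporters was not tested.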

How the data were processed

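Whole-liver RNA of 6 Floxed and 6 LKO mice was hybridized to 12 single-color Agilent arrays. The authors deposited the scanner intensity of every spot, with the background-corrected processed intensity and flags for outlier and well above background spots, and a table of quantile-normalized intensity per probe. The submitters' processing notes name Feature Extraction 9.5.1.1 and the file headers 10.7.1.1; the labels and the paper's methods name different RNA kits.

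From the deposited intensity, 1377 control spots per array were dropped. The processed signal was log2-transformed and quantile-normalized, outlier spots (0.298%) were set missing, and spots were averaged per probe. A probe was kept where at least 0.5 of its spots were well above background on all 12 arrays; this flag replaced the detection p of the methods. The brightest of 20403 kept probes represented each gene. Symbols came from RefSeq accessions (94.3% of 28389 matched). The values lay within 0.1 of the authors' log2 values for 99.9% of the data. Array number limits the precision, and no coordinate of a probe is given, since the array design uses another build.

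Genotypes were compared with limma 3.58.1 in R 4.3.3 (lmFit, eBayes, no covariates). Calls were made at an unadjusted p below 0.05 as in the paper's array methods, with Benjamini-Hochberg adjustment over all 16916 genes beside it. The paper's statistics section also names a fold change threshold and a t-test at an adjusted p below 0.05. Mice were the replicates. Single values were compared by exact permutation, and correlations by 100000 permutations. The code was tested on simulated data. Alternatives covered scaling, background, the authors' table, the dim-probe filter, probe choice, slide, replicate number, threshold, the methods' test and each mouse left out; centring on genotype and leaving out the mice at the ends of Mt1 were added after seeing the data. Named are all 9 genes, Phgdh, every called gene of the lists and 5 genes of like pattern; other list genes are named as examples chosen after their values were seen. The 9 genes and the lists were chosen with earlier results of these data known.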

Additional observations from a re-analysis of the deposited data

Results flagged for a closer look

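Each genotype held 6 mice, and the gap between its most extreme mouse and the next was compared with the whole range for the 8 tested genes, Phgdh, Per1 and Slc30a7. Of 22 groups of values, 2 exceeded Dixon's critical ratio at the 95% level, where chance gives about 1.1. In both the mouse was Floxed 2, the array with the fewest probes well above background (21614). Its Slc39a4 log2 intensity was 12.33, with the nearest Floxed mouse at 12.83. Its Slc39a14 log2 intensity was 10.80, with the nearest Floxed mouse at 11.49. Whether the array or the animal was unusual was not tested.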

How the results depend on the processing

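Recomputed under the alternatives, the differences of the 8 genes kept their direction and their side of the threshold 175 times. This count includes the adjusted threshold, which reused the main fit and could not call a gene that was not called before. It also includes slide as a fixed block and slide 2 alone, which gave the same differences as each other. The 9 exceptions were Mt2, whose difference turned to 0.13, 0.05, 0.004 and 0.06 without Floxed 1, Floxed 6, LKO 2 and LKO 3, Mtf1 (-0.33, -0.30 and -0.30 without Floxed 2, LKO 2 and LKO 4, within a range from -0.33 to -0.20, and -0.26 with slide as a random block), and Slc39a14 (-0.56 on slide 2), which then passed the unadjusted threshold.

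Of all genes, 1413 were called. Counts were 2791 without the filter on dim probes (1700 higher, 1091 lower), 317 with slide as a fixed block (168 and 149), 512 on slide 2 (224 and 288) and 0 after adjustment (0 and 0), and 316 were lower with 75th percentile scaling. Without 1 mouse, counts ran from 1103 to 1837 (630 to 1036 higher, 444 to 801 lower; 1837 without LKO 1). Of the 9 genes, 1 was called without the filter (Slc39a5, at background), 1 with slide as a random block, 1 on slide 2, and 0 to 1 without 1 mouse. The ZnT list had 0 called with slide as a fixed block, on slide 2, with the replicate block and after adjustment, and 0 to 1 without 1 mouse. Other Mtf1 targets had 1 with slide as a fixed block, on slide 2 and with the replicate block, and 0 to 1 without 1 mouse. Glucocorticoid genes had 2, 3 and 0 with slide as a fixed block, on slide 2 and after adjustment, and 1 to 2 without 1 mouse. Ranges without 1 mouse were 0 to 2 for acute phase and 0 to 1 for ZIP genes. The fixed slide block leaves only the 4 mice of slide 2 to compare genotypes. Other causes were not tested.

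Controls were littermates, but the labels do not say that a shared replicate number marks a litter or a day, although the animal numbers of same-numbered mice are adjacent in them. Deviations of same-numbered mice correlated from -0.24 to 0.32, above 0.1 in 3 of 6 pairs. Of 6 Floxed mice, 2 correlated best with the LKO mouse of their number. For Mt2, deviations from the genotype mean shared a sign except in Floxed 4 (-0.43) and LKO 4 (0.38). For Mt1, signs differed for numbers 3, 4 and 6. The replicate block lowered the SE of the difference from 0.318 to 0.175 for Mt2 and from 0.345 to 0.270 for Mt1, with neither called. The SE was also lower for Slc39a4 and Slc39a14, and higher for Mtf1, Slc30a1, Slc30a10 and Slc39a8. Pairing was thus not settled, and the permutation p values treated all mice as independent. With the replicate block 1428 genes were called, and Phgdh stayed called at -0.48.

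The Mt1 relation to Mt2 fell to 0.739 without Floxed 1 and Floxed 6. There, relations to Mt2 turned sign for Mtf1 (-0.047), Slc30a10 (0.025), Per1 (-0.120) and Lcn2 (-0.207), which was also -0.079 without Floxed 1 and Floxed 3.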
